A study of Mus musculus with 2 samples.

Results

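The BCL-2 family decides whether a T cell lives or dies through its mitochondria, and the transcripts of 10 of its genes were followed here in CD8 T cells that had or had not been exposed to the synthetic glucocorticoid prednisolone. The 10 genes were taken by name, as all array probes that carry their RefSeq transcripts. They are Bcl2, Bcl2l1, Bcl2l2 and Mcl1 (survival proteins), Bcl2l11, Bbc3 and Pmaip1 (BH3-only proteins), Bax and Bak1 (pore formers) and the less studied relative Bcl2l15. They are 10 of the 23462 genes named on the array and have 20 probes. Every one of the 10 was represented, and 9 have a value under the rules used.

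Naive splenic CD8 T cells (CD44 low, CD62L high) of C57BL/6 mice were purified and stimulated for 2 days with immobilised antibodies to TCR-β (3 µg/ml) and CD28 (1 µg/ml) plus interleukin-2 (10 ng/ml). One culture received prednisolone at 1 µM and the other received vehicle, which is the control culture. Both were then moved to a fresh plate with interleukin-2 at 10 ng/ml for a further 3 days, and total RNA of day 5 was hybridised to a 1-colour Agilent array. Each condition had 1 array, so nothing was tested between the cultures and their spread is unknown, and the labels do not say how many mice gave the cells. The cells were a cultured population, so fewer cells of a type and less RNA per cell cannot be told apart in any value below.

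Survival proteins such as BCL-2, BCL-XL, BCL-W and MCL-1 hold the pore formers BAX and BAK in check at the outer mitochondrial membrane. BH3-only proteins such as BIM, PUMA and NOXA bind and neutralise the survival proteins, and some of them activate BAX and BAK directly. Once the pores open, cytochrome c leaves the mitochondria and caspases are switched on. Glucocorticoids are known to kill resting lymphocytes and thymocytes by this route, with BIM and PUMA among the mediators, whereas activated T cells receiving cytokines are protected to a large extent.

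Prednisolone and vehicle differed by at least 2-fold for 3 of the 9 genes with a value. Bcl2l15 was 34.2-fold brighter with prednisolone (12.4-fold after the normexp background correction, and without a value when 50 units were required on both arrays). Pmaip1, which encodes NOXA, was 2.41-fold brighter, while Bcl2l2, which encodes BCL-W, was 2.54-fold dimmer. The other 6 genes, Bcl2, Bcl2l1, Bcl2l11, Bbc3, Bax and Bak1, lay within 2-fold. Over all 13129 genes with a value, 6.86% were higher by 2-fold or more, 7.81% lower by 2-fold or more and 14.7% apart in either direction. The higher and lower shares were 3.27% and 3.31% after normexp and 10.9% and 5.11% with spike-in scaling. With 9 genes, the count of 3 is a description and not a result about the family. The median log2 difference (prednisolone minus vehicle) of the 9 genes was 0.16, beside 0.0014 for the 11968 genes measured on both arrays, and 6 of the 9 lay above 0, joined by Bbc3 under spike-in scaling. Scaling both arrays on the spike-in controls instead adds 0.24 to every difference and lifts the median of the 9 genes to 0.40.

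**Figure D1:**
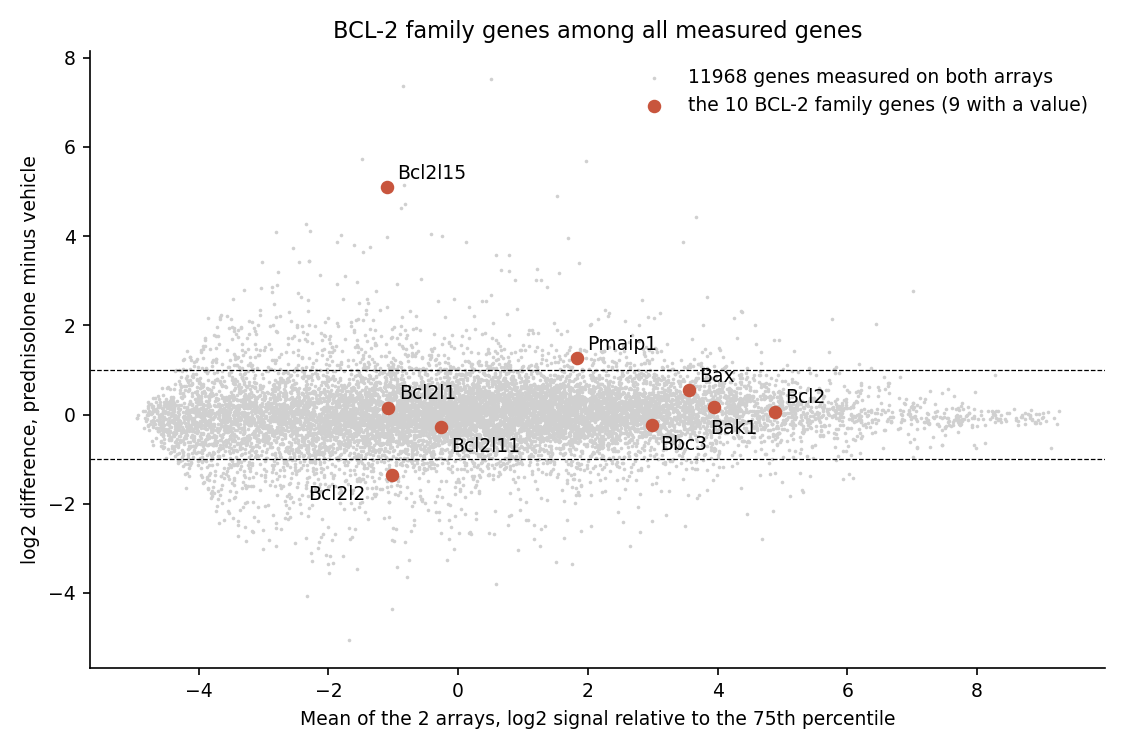
Log2 difference (prednisolone minus vehicle) against the mean log2 signal of both arrays, relative to the 75th percentile of each array, for the 11968 genes measured on both arrays (grey) and the 9 BCL-2 family genes with a value (orange). Dashed lines mark 2-fold. Bcl2l15 stands at 5.09, Pmaip1 at 1.27 and Bcl2l2 at -1.35, and the other 6 lie between the dashed lines.

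The sequences upstream of these genes differ widely in base composition, and 4 of them are printed because they belong to the gene farthest apart (Bcl2l15), the gene that was lower (Bcl2l2), the founding survival gene (Bcl2) and the BH3-only gene best known from glucocorticoid-treated lymphocytes (Bcl2l11). RefSeq windows (assembly GRCm38.p6) were found for 9 of the 10 genes, in 14 windows. None was available for Pmaip1, so its upstream bases were not searched. For the other genes, the 250 bases before each annotated start were read. Capitals mark GC boxes (GGGCGG) and the FOXO motif (GTAAACA), on either strand.
Bcl2l15, chr3:103832446-103832695, plus strand: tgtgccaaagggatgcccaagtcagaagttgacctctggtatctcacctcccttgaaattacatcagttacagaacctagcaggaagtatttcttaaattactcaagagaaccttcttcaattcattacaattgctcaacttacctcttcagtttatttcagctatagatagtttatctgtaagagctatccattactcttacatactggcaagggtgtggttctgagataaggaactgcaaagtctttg
Bcl2l2, chr14:54883175-54883424, plus strand: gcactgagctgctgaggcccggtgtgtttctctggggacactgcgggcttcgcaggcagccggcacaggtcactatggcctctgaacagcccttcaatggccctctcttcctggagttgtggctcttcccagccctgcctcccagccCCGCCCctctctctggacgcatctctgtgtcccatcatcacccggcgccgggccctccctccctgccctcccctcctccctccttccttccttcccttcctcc
Bcl2, chr1:106714291-106714540, minus strand: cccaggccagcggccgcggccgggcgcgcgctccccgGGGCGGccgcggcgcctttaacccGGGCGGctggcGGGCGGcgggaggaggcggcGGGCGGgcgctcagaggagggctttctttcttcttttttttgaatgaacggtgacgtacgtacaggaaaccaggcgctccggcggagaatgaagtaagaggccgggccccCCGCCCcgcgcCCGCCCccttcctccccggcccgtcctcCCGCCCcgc
Bcl2l11, chr2:128125788-128126037, plus strand: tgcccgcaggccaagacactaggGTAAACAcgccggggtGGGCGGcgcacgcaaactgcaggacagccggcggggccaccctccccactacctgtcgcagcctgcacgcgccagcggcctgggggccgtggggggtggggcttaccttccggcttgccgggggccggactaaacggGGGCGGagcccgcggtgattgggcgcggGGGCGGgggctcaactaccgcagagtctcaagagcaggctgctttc

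The window of Bcl2l15 has no CpG and a GC content of 38.8%, whereas that of Bcl2 has 36 CpGs and 74.8% GC. Over all 32851 windows of 27025 genes the median was 6 CpGs and 52.4% GC. The Bcl2l2 window holds 9 CpGs and 66% GC, and the Bcl2l11 window shown holds 24 CpGs and 72% GC. GC boxes stand upstream of Bcl2, Bcl2l2, Mcl1, Bcl2l11, Bbc3 and Bax, that is 6 of the 9 genes with a window, where 35.4% of all genes have at least 1. The FOXO motif occurs upstream of Bcl2l11 and Bbc3, against 3.54% of all genes. A gene counts when any of its windows has the motif, and Bcl2l11, Bbc3 and Bcl2l1 have several windows each. By window, GC boxes were in 9 of 14, against 32.7% of all windows. The FOXO motif was in 2 of 14, against 3.17%.

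The other motifs searched were read on both strands of the same 250 bases. The palindromic glucocorticoid response element GNACANNNTGTNC (0.44% of all genes) and the half-site hexamer AGAACA (18.2%) were in none of the 9 genes' windows. The STAT motif TTCNNNGAA (8.13% of all genes) and the TATA box TATAAA (14.3%) were likewise in none of them. The E box CACGTG (6.86%) was upstream of Bbc3 and Bax, and the E2F motif TTTCGCG (0.81%) upstream of Bcl2l1. These matches describe letters in a short window, and binding was not measured.

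Among the survival genes, the signal of Bcl2 was alike on both arrays. Bcl2 encodes the family's founding member, which guards naive and memory T cells downstream of interleukin-7. Its probe A_52_P534870 read 21269.7 ± 2127 units (software error) with vehicle and 20222 ± 2022 with prednisolone. Its second probe, A_51_P380013, which carries another Bcl2 transcript, read 6280.4 ± 628 and 6772 ± 677. The mean log2 difference was 0.07 ± 0.14, less than its software error, and it ranged from -0.02 with the brightest probe alone to 0.31 with spike-in scaling.

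Bcl2l1, the gene of BCL-XL, which is induced by T cell receptor and CD28 signalling, has 5 probes. The brightest, A_55_P1974877, read 8506 ± 851 units with vehicle and 8852 ± 885 with prednisolone. The other 4 were dim, from 27.3 to 156 units with vehicle and from 33.9 to 165 with prednisolone. Under the main scaling all 5 differences were above 0, from 0.03 to 0.36, and their mean was 0.16 ± 0.10.

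Bcl2l2 was the survival gene that differed. It encodes BCL-W, a close relative of BCL-XL that lymphocytes depend on less than on the other survival proteins. Its only probe, A_55_P2132507, read 314 ± 31.5 units with vehicle and 119 ± 12.2 with prednisolone, a log2 difference of -1.35 ± 0.21. Both readings were well above background, and 8.33% of all genes lay this far from 0 or farther. The gene stayed at least 2-fold lower under all 10 alternative settings, from -1.40 without scaling to -1.01 after the normexp background correction, which is close to the 2-fold line. With 1 probe there is no second reading of this gene on the array.

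Mcl1 encodes a short-lived survival protein that activated T cells cannot do without. Its only probe read 6062 ± 606 units with vehicle and 7954 ± 795 with prednisolone. The spot carries an outlier flag on the prednisolone array, so Mcl1 has no value under the main rules. The flag is for the local background around the spot, which was 23 units against an array median of 28, and not for the spot, whose median brightness was 7238. With flagged spots kept, the log2 difference of Mcl1 was 0.44 ± 0.20, or 1.36-fold.

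**Figure D2:**
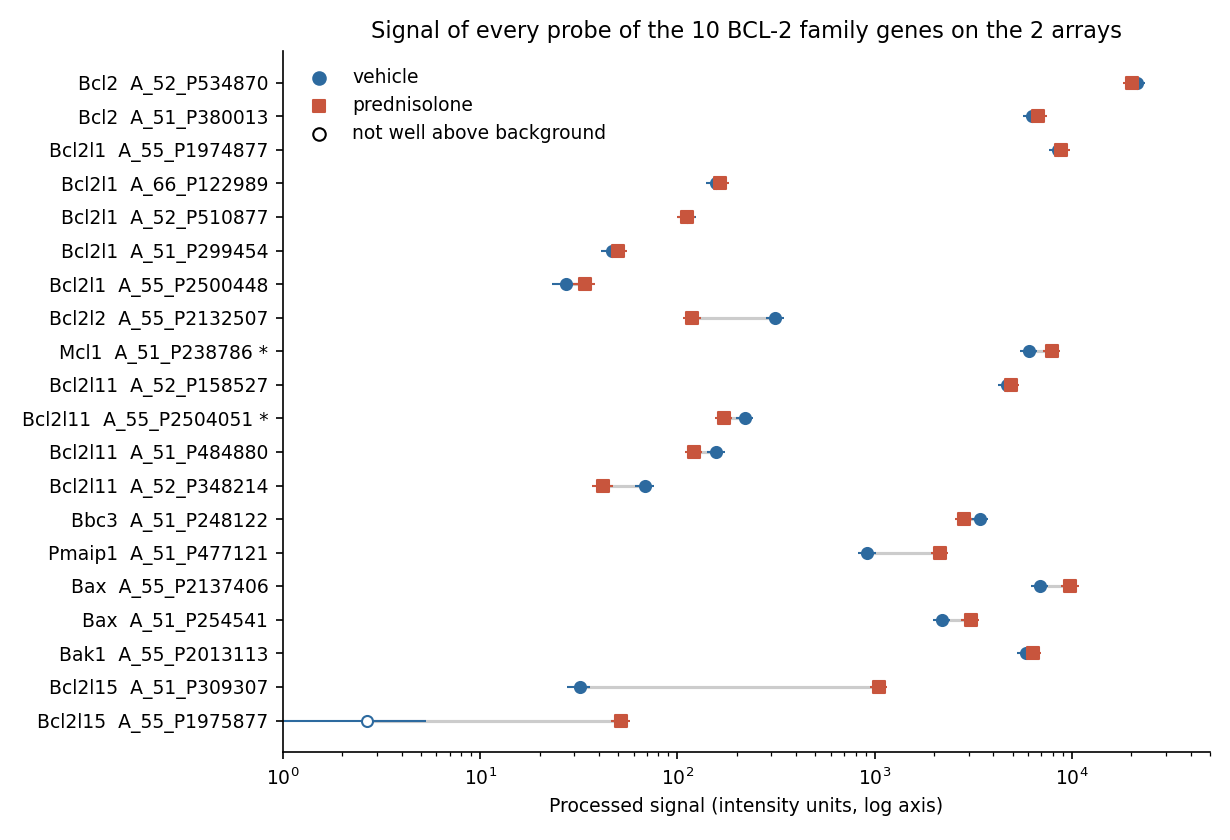
Processed signal (intensity units, log axis) of each of the 20 probes on the vehicle array (blue circles) and the prednisolone array (orange squares), with the scanner software's error as bars. An asterisk marks a probe with an outlier flag and an open symbol a reading not well above background, whose bar runs off the axis. Only the probes of Bcl2l2, Pmaip1 and Bcl2l15 are separated by 2-fold or more.

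The BH3-only genes lay on both sides of 0. Pmaip1, the gene of NOXA, a p53-inducible protein that binds MCL-1, was the highest of the 3. Its only probe read 919 ± 91.9 units with vehicle and 2136 ± 214 with prednisolone, a log2 difference of 1.27 ± 0.20. Of all genes, 9.38% lay this far from 0 or farther. Pmaip1 was at least 2-fold higher under all 10 alternatives, with 1.21 to 1.51 on the log2 scale. Set against Mcl1 (flagged spot kept), Pmaip1 differed by 0.83 ± 0.29 more, or 1.77-fold, a quantity that no scaling of whole arrays can alter.

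Bbc3 encodes PUMA, which binds all the survival proteins and is another target of p53. It was slightly dimmer, at 3425 ± 343 units with vehicle and 2825 ± 283 with prednisolone. Its log2 difference of -0.23 ± 0.20 is about the size of its software error, and spike-in scaling put it at 0.01. The ratio of Pmaip1 between the arrays was 2.82 times that of Bbc3, and these p53-inducible genes stood on opposite sides of 0 under the main scaling.

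Bcl2l11, the gene of BIM, is the one whose probes disagreed. BIM is restrained by growth factor signalling and induced by FOXO factors when cytokines are withdrawn. Probe A_52_P158527 read 4663 ± 466 units with vehicle and 4909.8 ± 491 with prednisolone, a difference of 0.12 ± 0.20. Probe A_51_P484880, whose listed transcript is the same, read 158 ± 16.0 and 121 ± 12.4, a difference of -0.33 ± 0.21. Probe A_52_P348214, listed for a further transcript, read 68.4 ± 7.45 and 42.1 ± 5.04, a difference of -0.65 ± 0.23.

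The remaining Bcl2l11 probe carries a background flag on both arrays and read 219.7 and 173 units, a difference of -0.30 that is not part of the mean. The mean of the 3 usable probes was -0.29 ± 0.12. With the brightest probe alone Bcl2l11 was 0.12, so its sign rests on the dim probes, and it was -0.10 with dim probes left out more strictly. The difference of Bcl2l11 minus that of Bcl2 was -0.35 ± 0.19.

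The pore formers were both slightly brighter with prednisolone. Bax was covered by 2 probes that agreed closely, with 2187 ± 219 and 6899 ± 690 units on the vehicle array and 3062 ± 306 and 9833 ± 983 on the prednisolone array. Their differences were 0.54 and 0.56, and the mean of 0.55 ± 0.14 corresponds to 1.46-fold. It was between 0.49 and 0.79 under the alternatives, so above 0 in all 10 and 2-fold in none. Bak1 has 1 probe, which read 5839.7 ± 584 and 6324 ± 632 units, a difference of 0.16 ± 0.20. The difference of Bax was larger than that of Bak1 by 0.38 ± 0.25 and larger than that of Bcl2 by 0.48 ± 0.20.

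**Figure D3:**
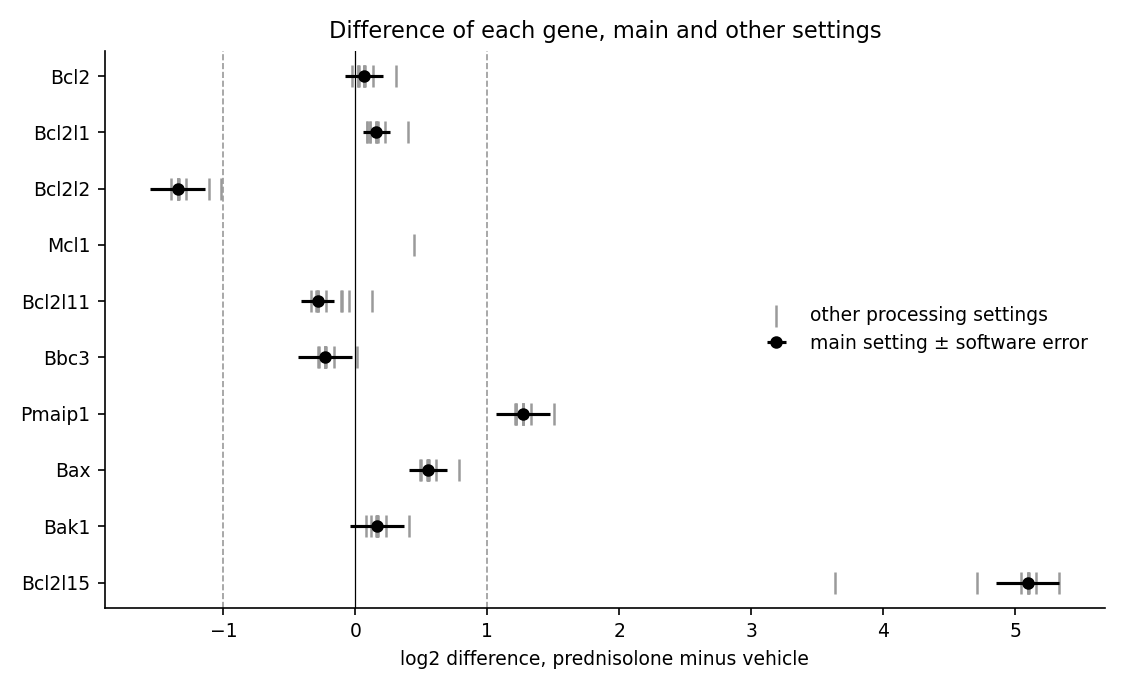
Log2 difference (prednisolone minus vehicle) of each of the 10 genes under the main setting (black points, bars show the software error) and under each of the other settings that gave a value (grey ticks). Dashed lines mark 2-fold. Bcl2l2, Pmaip1 and Bcl2l15 stay outside the lines in every setting that gave a value, Mcl1 has a tick only with flagged spots kept, and the ticks of Bcl2, Bcl2l11 and Bbc3 fall on both sides of 0.

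Bcl2l15 had by far the widest separation of the 10. It encodes BFK, a small BCL-2-like protein whose role in T cells is little studied. Probe A_51_P309307 read 31.9 ± 4.21 units with vehicle and 1053 ± 105 with prednisolone, a log2 difference of 5.09 ± 0.24. Its vehicle reading was dim, where readings down to 12.9 units were called well above background on that array, with a median spot brightness of 63 units over a local background of 31. Counting Bcl2l15 itself and genes with a bound, 15 of the 13129 genes were higher by this much or more.

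The other probe of Bcl2l15, A_55_P1975877, is listed for a different transcript and read 2.66 ± 2.67 units with vehicle, which is not well above background, and 51.6 ± 5.71 with prednisolone, which is. Against the lowest reading well above background on the vehicle array, this probe was at least 4.15-fold brighter. Both probes thus separated the arrays in the same direction. How large the ratio came out depended on the dim vehicle reading. It was 12.4-fold (3.64 on the log2 scale) after normexp, 4.71 on the log2 scale when the dim probe was averaged in, and not obtained when 50 units were required on both arrays. In each of the 9 alternatives that gave a value, Bcl2l15 was past 2-fold.

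The neighbours of the 3 separated genes, the 2 nearest protein-coding genes on each side in the RefSeq table, were read for comparison. Around Bcl2l15, Dclre1b, a DNA repair nuclease gene, was 1.22 ± 0.17, Ap4b1, which encodes an adaptor subunit of vesicle transport, was -0.11 ± 0.15 and Rsbn1 was -0.46 ± 0.15. Ptpn22, which encodes a phosphatase that restrains T cell receptor signalling, had only flagged spots, at 0.27. Beside Bcl2l2, Pabpn1, which encodes a poly(A)-binding protein, was 0.37 ± 0.20, Homez was 0.08 ± 0.20 and Slc22a17 was -1.11 ± 0.23. Next to Pmaip1, Lman1, a cargo receptor gene, was 0.03 ± 0.14 and Gnal, which encodes a G protein subunit, was 1.03 ± 0.21. Ppp1r3e and Mc4r had bounds below 2-fold, and Ccbe1 was not well above background. Past 2-fold were Dclre1b, Slc22a17 and Gnal, where 14.7% of all genes lay that far apart, and each came within 2-fold under another setting. After normexp they were 0.82, -0.52 and 0.67, Slc22a17 was -0.87 with spike-in scaling and -0.50 with no filter on dim probes, and Gnal was 0.98 without scaling.

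Of 17 further BCL-2 family genes, 11 had a value, 6 above 0 and 5 below, with a median of 0.09 (0.33 with spike-in scaling). Bnip3 was the member at least 2-fold lower and none was 2-fold higher, where the shares of all genes were 7.81% and 6.86%. Bnip3 encodes a hypoxia-inducible mitophagy receptor with a BH3-like stretch, and it read 40164 units with vehicle and 14252 with prednisolone (-1.45 ± 0.20). Its relative Bnip3l, with 2 probes that agreed, read 7036 and 3700.4 units (-0.88 ± 0.14).

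The A1 group includes survival genes induced by NF-κB, and its genes with a value were also dimmer with prednisolone. Bcl2a1d read 1825 and 956 units (-0.88 ± 0.20) and Bcl2a1c 97.5 and 59.1 (-0.67 ± 0.22). The A1 genes are near-identical copies, so these probes may read each other's transcripts, and Bcl2a1a and Bcl2a1b were not named through the RefSeq table.

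The remaining BH3-only genes were brighter or alike. Bid, whose protein links death receptors to mitochondria, read 970.1 and 1414 units (0.59 ± 0.20). Bmf was 0.32 ± 0.21, Bik 0.20 ± 0.22 and Bad, which is controlled by phosphorylation, 0.096 ± 0.20. Bok, a BAX-like gene, was near the limit of detection at 25.0 and 16.3 units (-0.56 ± 0.36). Bcl2l13 was 0.21 ± 0.14 and Bcl2l12 0.09 ± 0.20. For Hrk and Bcl2l10 neither array gave a reading well above background.

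Downstream of the mitochondria, 17 of 20 genes had a value, and the median was 0.02. Past 2-fold, 3 were higher and none was lower, where the shares of all genes were 6.86% and 7.81%. Cycs, the gene of cytochrome c, read 1166 and 3013 units (1.42 ± 0.20). With flagged spots kept, which adds its second probe, Cycs was 1.05. Endog, which encodes endonuclease G, read 1127 and 2909.8 (1.42 ± 0.20). Diablo, whose protein antagonises inhibitors of apoptosis, read 294 and 655 (1.21 ± 0.15, and 0.98 after normexp). Htra2 and Aifm1, which also encode proteins of the mitochondrial intermembrane space, were within 2-fold at 0.41 ± 0.12 and 0.19 ± 0.20. Casp6, an executioner caspase gene, was the lowest at -0.92 ± 0.20. Apaf1, which encodes the scaffold that cytochrome c binds, was -0.63 ± 0.17 and Casp9 was -0.31 ± 0.15. The inhibitor genes Birc2 (-0.65 ± 0.20) and Birc3 (-0.78 ± 0.21) were dimmer and Xiap was alike on both arrays (-0.05 ± 0.15, above 0 with spike-in scaling and in the deposited value table).

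Genes of factors known to act on BCL-2 family genes lay on both sides of 0. Of 20, 18 had a value, with a median of 0.14, and past 2-fold 3 were higher and 3 were lower, beside 6.86% and 7.81% of all genes. Myb, whose protein activates Bcl2, read 195 and 561 units (1.57 ± 0.12), Tsc22d3, the glucocorticoid-induced leucine zipper gene, 3988 and 10544 (1.45 ± 0.14), and Nfkb1, 797 and 2097 (1.45 ± 0.20). Ddit3, whose protein CHOP induces Bcl2l11 under stress, read 1488 and 225 units (-2.68 ± 0.20). Nfil3, a survival-associated repressor gene, read 14570.1 and 4468 (-1.66 ± 0.14). Stat3 read 108 and 44.3 (-1.23 ± 0.23), and was within 2-fold after normexp (-0.66) and with spike-in scaling (-0.99). Trp53 was 0.33 ± 0.20, Foxo1 0.21 ± 0.20 and the glucocorticoid receptor gene Nr3c1 0.60 ± 0.20. Foxo3 was dim, at 47.9 and 31.8 units (-0.54 ± 0.20), and was -0.21 after normexp and -0.30 with spike-in scaling.

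Of the partners at the outer membrane and genes that control turnover of the proteins, 22 of 25 were measured, with a median of 0.05. None was 2-fold apart, where 14.7% of all genes were. The extremes were Dynll1, which encodes a dynein light chain that binds BIM (0.70 ± 0.20), and Usp9x, which encodes a deubiquitinase of MCL-1 (-0.49 ± 0.21). Huwe1, the gene of an MCL-1 ubiquitin ligase, was 0.52 ± 0.14.

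**Figure D4:**
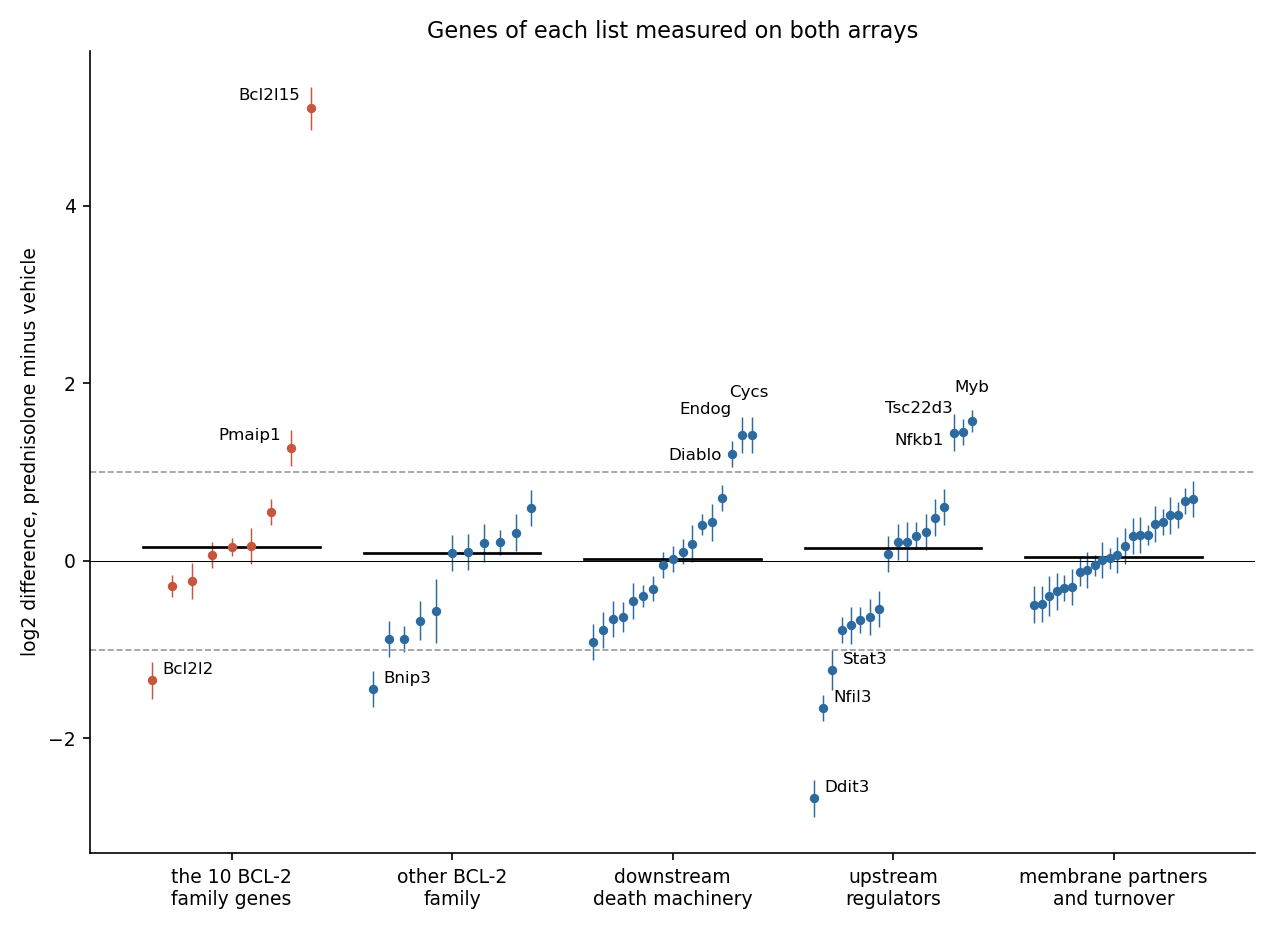
Log2 difference (prednisolone minus vehicle) of every gene measured on both arrays in 5 lists, ordered by value within a list. Bars show the scanner software's error, black lines the list medians and dashed lines 2-fold. The genes named in the plot are those at least 2-fold apart. The membrane partners show no gene beyond the dashed lines, and Bcl2l15 at 5.09 is the farthest point of any list.

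On each array 53.5% of 59305 non-control spots were well above background and none was saturated. Of 12 CD8 T cell markers 7 had a value, all well above background on both arrays, and none was 2-fold apart. Their median log2 difference was -0.42, with 6 of the 7 below 0, from -0.95 for Cd247 through -0.61 for Cd3d and -0.01 for Cd8a to 0.10 for Cd2. The summed signal of these 7, taking the brightest unflagged probe of each gene without scaling, was 235303 units with vehicle and 182036 with prednisolone. Sums for the other cell types were made in the same way and also count listed genes not well above background. B cell markers were low, with sums of 125 and 95.6 units, and 2 of 7 had a value. Cd22 read 98.8 and 71.7 units and Pax5 14.5 and 13.2, while Cd79a, Ms4a1 and Blk were not well above background. Of 5 CD4 T cell markers 3 had a value, with sums of 5637 and 4002 units. Tnfrsf4 read 4898 and 3283 units, Cd4 640.5 and 656 and Foxp3 93.8 and 53.8, and Cd40lg was not well above background. Of 8 myeloid markers, 5 had a value, and the summed signal, mostly from the brighter Itgam probe, was 4439 and 3876 units. Cd68 (-2.22) and Cd74 (at least 4.61-fold lower) were dimmer. Csf1r (0.23) and Itgam (0.02) were within 2-fold, and Cd14 was at least 1.10-fold higher. Adgre1, Lyz2 and Itgax were not well above background. Of 6 erythroid and platelet markers, 2 had a value, Hba-a1 (3.97) and Epor (-2.95), with sums of 273 and 1596 units and Pf4 and Ppbp not well above background. Of 6 neutrophil markers 4 had a value, with sums of 1423 and 1071 units. Cxcr2 was at least 5.67-fold higher, Elane was 0.11 and Mpo was at least 1.34-fold lower. Ly6g, the brightest of them, read 1211 and 792 units (-0.56), and S100a8 and S100a9 were not well above background. Of 6 NK cell markers 4 had a value, with sums of 125 and 193 units. Klra8 was at least 4.51-fold and Klra4 at least 2.09-fold higher, while Klrb1c was 0.07 and Fcer1g 0.08. The part of these cell types in the differences of Bcl2l15, Pmaip1 and Bcl2l2 was not tested.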

How the data were processed

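The 2 deposited scanner files hold the linear intensity of each spot, which the authors obtained with Agilent Feature Extraction 12.0.3.1, per the file headers; the processed signal is background-subtracted and detrended within the array but not scaled between arrays. The headers name genome build mm9. The deposited value table of the series equals the processed signal times 1 constant per array (0.792 vehicle, 0.858 prednisolone). It is linear and not centred (column medians 16.2 and 16.4), and the reason for these constants is not stated in the labels or files.

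Values are log2 processed signal minus the 75th percentile of non-control spots (400.4 and 386.9 units). Control spots and spots with any outlier flag (7.20% and 8.92%) were left out. Accessions without version were matched to RefSeq symbols (GRCm38.p6), which named 33767 probes and left 22838 unnamed. A gene's value is the mean over its probes well above background on both arrays. Genes detected on a single array (1161) have a bound, taken against the higher of the other array's own reading and its lowest reading well above background. A log2 difference of 1 (2-fold) was counted, with no test.

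The ± is the scanner software's error, which leaves out the spread between cultures. For a gene with several probes, the errors of its probes were combined as independent. Its ± therefore shrinks with the number of probes and leaves out disagreement between them. For a difference between genes, their errors were likewise combined as independent. The ± had a median of 0.20 over genes, and spots of 281 probes printed repeatedly had a median SD of 0.03. The procedure was tested on a simulated second array, made from the vehicle array with known changes and the same noise at every brightness. That simulation does not bear on the noise of dim readings or on the spread between cultures. The 10 genes, the lists and the rule for named genes (all 10 genes, all other family genes, list members at least 2-fold apart or farthest from 0, and the neighbours) were chosen with earlier results of these data known. Genes named beyond that rule (Htra2, Aifm1, Apaf1, Casp9, Birc2, Birc3, Xiap, Trp53, Foxo1, Foxo3, Nr3c1, Huwe1 and the markers) were chosen for their role, after values were seen. Some listed genes are not reported here. Work used Python 3.11.15, pandas 2.3.3 and limma 3.58.1 (normexp, offset 50). The 10 alternatives varied background correction, scaling, flags, the filter on dim probes, the choice of probe and the source of the values.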

Additional observations from a re-analysis of the deposited data

How the results depend on the processing

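No paired analysis was possible because each condition has 1 array. Spike-in scaling moved the median of all genes from 0.0014 to 0.24 and raised the share of higher genes, of all past 2-fold, from 46.8% to 68.0%. It put the median of the 9 genes at 0.40, of the other BCL-2 family at 0.33, of the downstream genes at 0.26, of the upstream regulators at 0.38 and of the membrane partners at 0.28. With the brightest probe of each gene the downstream median was 0.19. With 50 units required on both arrays 1 of the 8 genes with a value was at least 2-fold higher, since Bcl2l15 has no value there. Of all genes, 5.10% were higher under that setting. With flagged spots kept 2 of 12 other family genes were 2-fold apart, where 6.91% of all genes were higher and 7.93% lower. The other 72 of 80 list values stayed within the software's error of the main value or, for counts, within 1.5-fold. Alternatives for the membrane partners and the neighbours were added after seeing the data. Dim readings limit Bcl2l15, Bcl2l2 and all but 1 of the probes of Bcl2l11 and Bcl2l1.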

Other observations

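Some family and death genes are read by flagged spots alone, and their values with those spots kept follow. Bcl2l14, another BCL-2-like gene, was -1.43 on the log2 scale (prednisolone minus vehicle). Casp8, the initiator caspase gene of death receptors, was 0.40 and Casp2 was 0.04. Birc5, the gene of survivin, was 0.13, and Stat5a, which encodes a factor that carries the interleukin-2 signal, was 0.09.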
